A study of Arabidopsis thaliana with 12 samples.

Results

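The genes described here belong to families with members that build or decorate xylan and other wall polymers. They were taken as every gene whose symbol in the array annotation begins with TBL, IRX, GUT, GUX or CESA. Only probe sets that name 1 gene were used, with 1 probe set per gene, that of highest mean signal over the 12 arrays. The rule found 26 genes, each with 1 probe set, of the 13350 genes that the annotation names singly. They are 22 TBL genes, IRX15, IRX15-L, GUT1 and GUT2. No symbol in the annotation used here begins with CESA or GUX, so cellulose synthases and the glucuronosyltransferases of xylan were not analysed here. The group is thus one of xylan genes and the TBL family rather than of cellulose genes. Of the 26 genes, 14 are TBL genes to which no part in xylan or mannan acetylation is assigned here.

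Xylan is a chain of xylose sugars that is made in the Golgi and carries acetyl groups. It fills the secondary walls of xylem, the water-conducting tissue at the centre of the root. The TRICHOME BIREFRINGENCE-LIKE (TBL) proteins are a plant family in which several members place acetyl groups on xylan, mannan or xyloglucan, and mutants that lack xylan or its acetyl groups often have collapsed xylem vessels. GUT2, also called IRX10, and its close relative GUT1, also called IRX10-L, lengthen the xylan chain, while IRX15 and IRX15-L are needed for chains of normal length.

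RNA came from whole roots of Arabidopsis thaliana at growth stage 3.90, with 20 to 40 plants pooled per sample and 3 arrays for each of 4 genotypes. The control is the wild type Wassilewskija, called ws2. The mutants are akt1, cngc1 and cngc4. The akt1 line carries the allele akt1-1 in Wassilewskija and lacks an inward potassium channel. The cngc1 and cngc4 lines are each named for a cyclic nucleotide-gated channel. For both cngc lines the labels give the name of the mutant where an accession would stand, and they name no allele, so the accession and the mutation cannot be told apart in a difference from ws2. Whether replicates were grown apart is not in the labels, so a p-value reflects only how far these samples spread, and that spread may be technical. The targeted genes AKT1, CNGC1 and CNGC4 have no values here, and the genotypes were therefore not checked against them.

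Arrays were on the same scale, with median signals of 43.3 to 48.5 in arbitrary units. The ratio of 3-prime to 5-prime signal, a reading of RNA integrity, overlapped between cngc4 and ws2 for both actin and GAPDH controls, each of which has 2 pairs of probe sets. Its range was 4.70 to 5.96 in cngc4 and 4.92 to 7.35 in ws2 for the first actin pair, and 1.64 to 1.94 and 1.53 to 1.94 for the second. For the first GAPDH pair it was 1.03 to 1.82 in cngc4 and 1.18 to 1.37 in ws2. For the second it was 1.06 to 1.25 and 1.03 to 1.09. On both GAPDH pairs cngc4 replicate 2 had the highest ratio of any array (1.82 and 1.25), and the part of this in the results was not tested. Of the 12 arrays, cngc1 replicate 3 had the highest background (143), noise (12.9) and number of outlier cells (1251). By their titles, 3 arrays are repeats (ws2 replicates 2 and 3, cngc4 replicate 1), and what was repeated is not said.

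Of the 26 genes, 20 passed the filter on low signal, which asks for a signal above the 40th percentile of the array (29.0 to 33.7) on at least 3 arrays. The 6 that did not pass were IRX15, TBL15, TBL20, TBL21, TBL42 and TBL43. Of the tested genes TBL32 exceeded the percentile on the fewest arrays, 7 (1 of ws2, 1 of akt1, 2 of cngc1 and 3 of cngc4). IRX15 and TBL21 lay just outside the filter, on 1 array each. TBL19 exceeded it on 10 arrays, TBL26 and TBL41 on 11, and the remaining 16 tested genes on 12. Differences are given as log2 fold changes of signal + 16, which understate the change of weak probe sets. In whole roots, fewer cells of a type and less RNA per cell cannot be told apart.

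In cngc4 roots 6 of the 20 tested genes fell against ws2, none rose and 14 did not pass (limma, Benjamini-Hochberg over all 14745 probe sets tested). All 6 are TBL genes: TBL36, TBL19, TBL30, TBL34, TBL38 and TBL45. Over all probe sets tested, 4.39% were called lower in this comparison. After median centring of the arrays, the lower share of all calls moved from 48.4% to 37.4%, and 5 of the 6 genes were still called, TBL45 being lost. The median log2 fold change of the 20 genes was -0.33, against -0.03 over all probe sets tested. A negative log2 fold change was seen in 16 of the 20, compared with 54% of all probe sets, and 9 had an unadjusted p under 0.05 and lay lower, compared with 12.3%. For 11 of the 20, the 3 cngc4 arrays all lay below the 3 ws2 arrays, which was so for 15.9% of all probe sets. The genes were chosen with earlier results of these data known. Such counts beside shares of all probe sets, here and below, therefore describe the genes and are not an independent test. With the repeat mark as a covariate 4 genes were called, TBL38 and TBL45 being lost. The number called also depended on some arrays: 2 without cngc4 replicate 2, 3 without ws2 replicate 3, and 0 within the unmarked arrays (1 of ws2, 2 of cngc4) or within the marked ones (2 of ws2, 1 of cngc4), where the lone array is assumed to vary like the others. Within the unmarked arrays all 6 genes kept a negative log2 fold change, between -0.92 and -0.38, and within the marked arrays between -1.06 and -0.35.

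**Figure D1:**
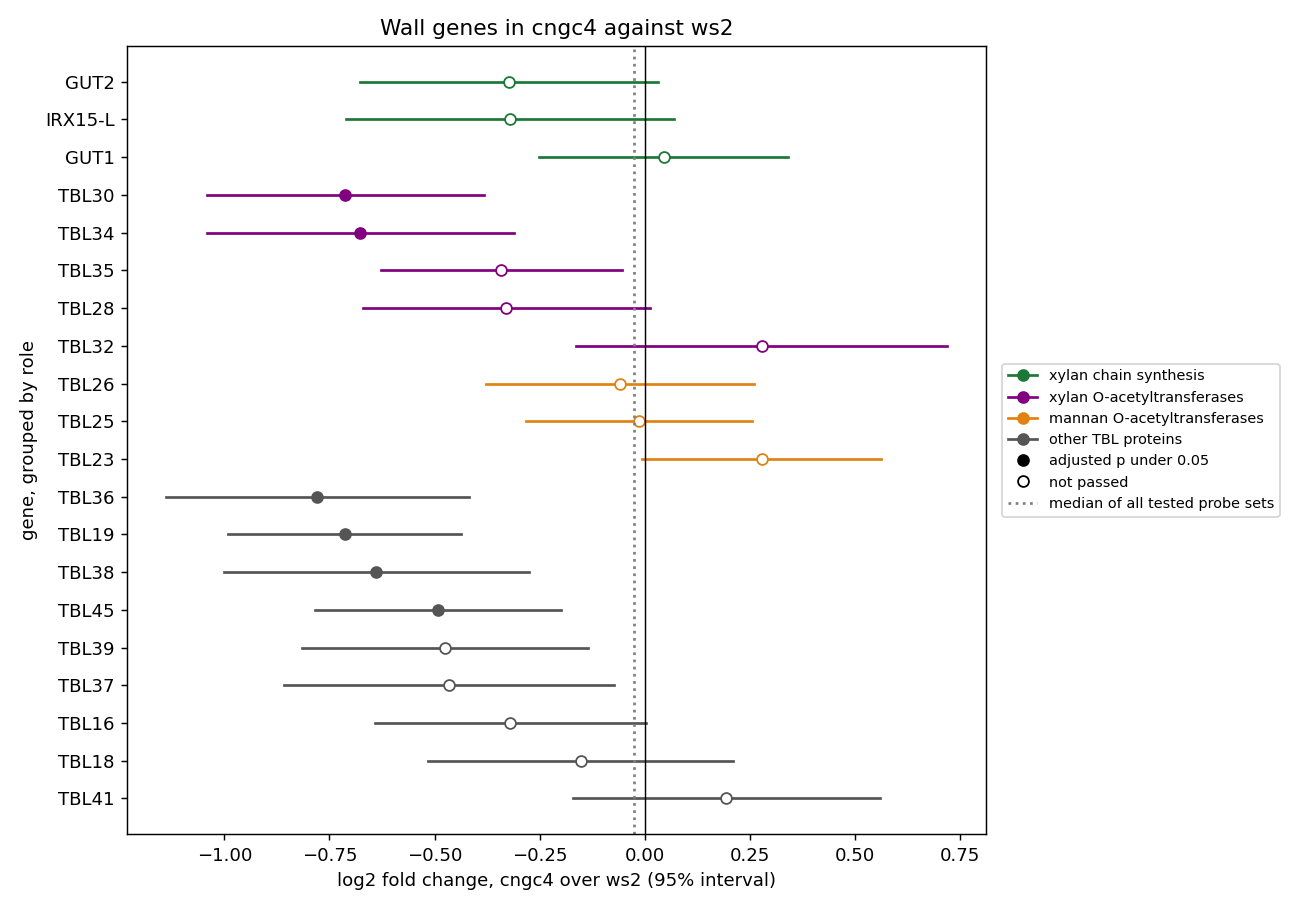
Log2 fold change of cngc4 over ws2 with its 95% interval for the 20 tested wall genes, grouped by role. Filled points passed the limma test over all probe sets, and they are 6 TBL genes between -0.78 and -0.49. The dotted line is the median of all tested probe sets, -0.03.

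Among the TBL proteins known as xylan acetyltransferases, TBL30 and TBL34 fell in cngc4 and TBL35, TBL28 and TBL32 did not pass. TBL30 read 129.6, 112.4 and 135.2 in ws2, 122.5, 145.5 and 160 in akt1, 85.4, 132.3 and 111.7 in cngc1, and 58.7, 74.8 and 78.7 in cngc4. Every cngc4 array lay below every other array. TBL30 fell against ws2 to 0.610 times the wild-type level of signal + 16 (log2 fold change -0.71, standard error 0.15, limma adjusted p = 0.0116).

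TBL34 forms a pair with TBL35 in which both add acetyl groups to xylose units of xylan. Its signal was 69.4, 68.6 and 98.4 in ws2, 60.1, 73.3 and 73.7 in akt1, 63.6, 66.8 and 86.5 in cngc1, and 31.2, 43 and 56.7 in cngc4. Again the cngc4 arrays were the lowest of the 12, although they differed among themselves more than those of TBL30 did on the log scale. TBL34 fell by 0.68 against ws2 on the log2 scale (standard error 0.17, limma adjusted p = 0.0252). That call was lost without ws2 replicate 3, without cngc4 replicate 1, without cngc4 replicate 2 and without the filter, with an adjusted p of up to 0.0981 when an array was left out.

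TBL35 had a ws2 signal of 81.9 to 95.6 and a cngc4 signal of 62 to 79.4, with no overlap, and a log2 fold change of -0.34 (95% interval -0.63 to -0.05, limma adjusted p = 0.134). TBL28, the neighbour of TBL30 in the gene order of assembly TAIR10.1 (AT2G40150 beside AT2G40160), read 81.4 to 104.4 in ws2 and 67.3 to 73.4 in cngc4. Its log2 fold change was -0.33 (95% interval -0.67 to 0.01, adjusted p = 0.229). The neighbours thus both had cngc4 arrays below the ws2 arrays, but only TBL30 passed, and whether their changes differ from each other was not tested.

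TBL32, like TBL33, adds acetyl groups to xylose units that carry glucuronic acid. Of the 5 xylan acetyltransferases tested, TBL32 alone had a positive log2 fold change in cngc4, with an interval that includes 0. Its signal was low, 23.2 to 33 in ws2 and 32.1 to 42.5 in cngc4, and its log2 fold change was 0.28 (95% interval -0.16 to 0.72, limma adjusted p = 0.443). The highest value of any array, 67.3, came from cngc1 replicate 3, the array of highest background and noise. Its probe set carries the suffix that the array maker gives to sets shared by similar transcripts, so other transcripts may add to the signal.

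TBL36 had the most negative log2 fold change of signal + 16 in cngc4 of the 20 tested genes, while without the offset TBL19 (-0.995), TBL34 (-0.87) and TBL30 (-0.84) lay further from 0 than TBL36 (-0.81). Its signal was 559.5, 591.3 and 531.4 in ws2, 411.5, 668.5 and 532.4 in akt1, 465.5, 508.3 and 523.1 in cngc1, and 391.5, 266.9 and 312.7 in cngc4. No cngc4 array reached the lowest array of another genotype, while akt1 spanned the whole range of ws2 and more. The mean fell from 561 ± 30.0 in ws2 to 324 ± 63.0 (SD over 3 arrays). On the log2 scale TBL36 thus fell by 0.78 (standard error 0.17, limma adjusted p = 0.0116). Without cngc4 replicate 2, the lowest array, the log2 fold change was -0.65 and did not pass (adjusted p = 0.0818).

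TBL38, described as a pectin acetylesterase in cells of the seed coat, read 199.5, 195.5 and 288.3 in ws2, 187.9, 290.2 and 250.5 in akt1, 196.2, 179.4 and 220.1 in cngc1, and 126.7, 143.8 and 145.3 in cngc4. The cngc4 arrays were close together and below all others, whereas ws2 and akt1 each had an array near 290. It fell by 0.64 on the log2 scale (standard error 0.17, limma adjusted p = 0.0311). Leaving out any of 5 arrays (ws2 replicates 1 and 3 and each cngc4 replicate) ended the call, with an adjusted p of up to 0.107. So did the repeat mark as a covariate (adjusted p = 0.0711) and testing without the filter (adjusted p = 0.0579).

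TBL45 read 91.5, 87.3 and 81.4 in ws2, 66, 76.7 and 87 in akt1, 63.1, 77.1 and 55.6 in cngc1, and 62.8, 47.7 and 61.4 in cngc4. Cngc4 was again below every ws2 array, but here cngc1 was too, and the ranges of cngc1 and cngc4 overlapped. Against ws2 it fell by 0.49 in cngc4 on the log2 scale (standard error 0.14, limma adjusted p = 0.0379), and in cngc1 its log2 fold change of -0.35 did not pass (adjusted p = 0.637). The cngc4 call was lost in 12 of 27 alternative fits, among them without any single ws2 replicate and without cngc4 replicate 2 or 3.

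TBL19 had the lowest adjusted p of the group in cngc4. It read 56.3, 55.5 and 62.6 in ws2, 35.7, 43.1 and 40.7 in akt1, 41.1, 43.2 and 53.3 in cngc1, and 26.7, 28.3 and 32.7 in cngc4. All 9 mutant arrays lay below all 3 ws2 arrays, and the cngc4 arrays were the lowest of the 12. The log2 fold change was -0.71 in cngc4 (standard error 0.13, limma adjusted p = 0.00425), -0.41 in akt1 (adjusted p = 0.957) and -0.26 in cngc1 (adjusted p = 0.685). Because 1 of the 3 cngc4 arrays exceeded the 40th percentile, the size of the drop in cngc4 is not exact, and the log2 fold change ran from -0.995 without an offset to -0.39 with an offset of 64. Its neighbour TBL21 (AT5G15890 beside AT5G15900) was too weak to test, with 18 to 34.4 in ws2 and 19.4 to 24.1 in cngc4.

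**Figure D2:**
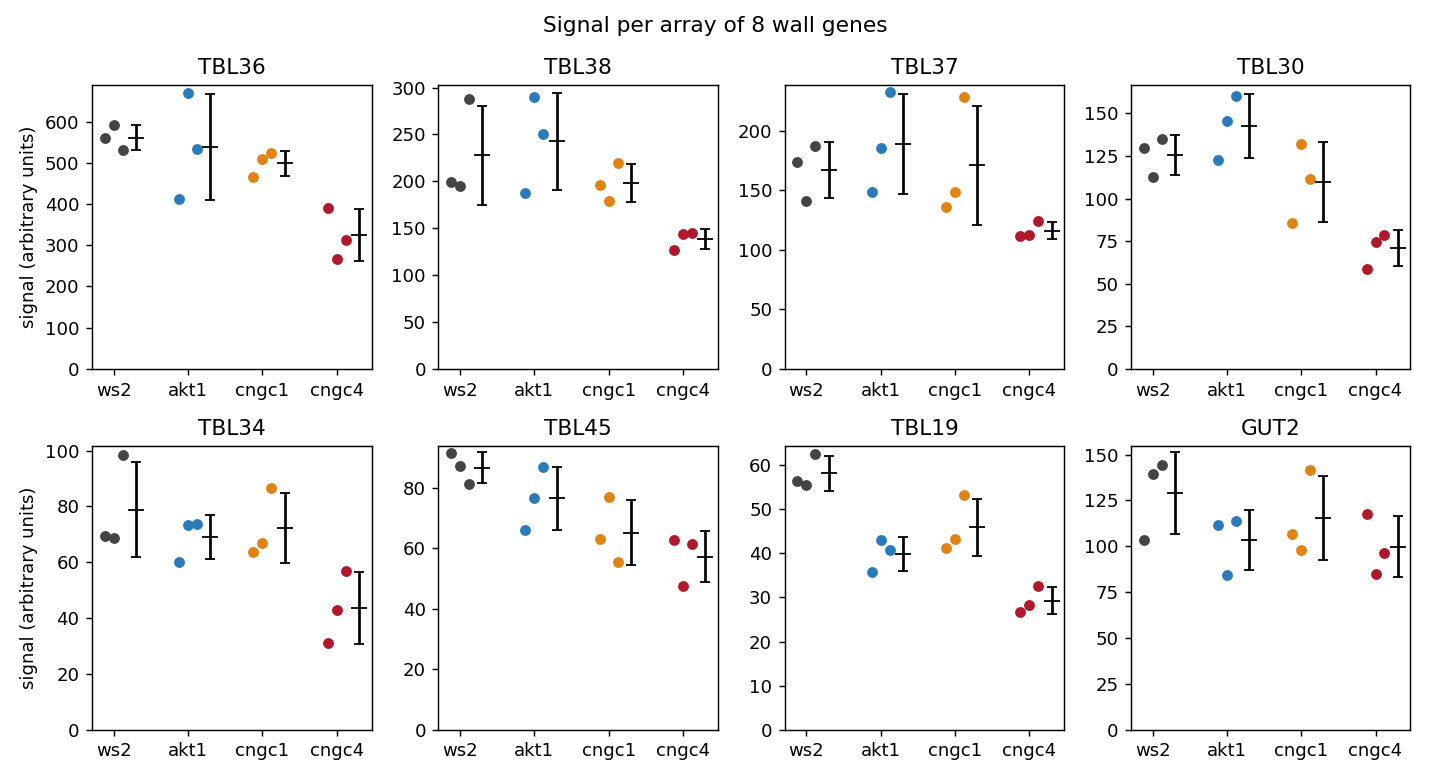
Signal per array, in arbitrary units on a linear axis from 0, of the 7 TBL genes called in any comparison and of GUT2, by genotype. Points are the 3 arrays of a genotype, and the bar beside them is their mean ± SD. For TBL36, TBL38, TBL37, TBL30, TBL34 and TBL19 the 3 cngc4 arrays lie below the other 9, while GUT2 overlaps between genotypes.

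The other TBL genes without a role given here did not pass in cngc4. TBL39 read 366.2 to 480 in ws2 and 261.5 to 322.7 in cngc4, and TBL37 read 141 to 186.7 in ws2 and 111.5 to 124.2 in cngc4, neither with overlap. Their log2 fold changes were -0.47 for TBL39 (limma adjusted p = 0.0776) and -0.47 for TBL37 (adjusted p = 0.133). TBL16 also lay lower without overlap, at 52.8 to 72.2 against 74.2 to 89.3, with a log2 fold change of -0.32 (adjusted p = 0.212). TBL18 overlapped between the genotypes, with a log2 fold change of -0.15 (adjusted p = 0.622).

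TBL41, also without a role given here, was 1 of 4 tested genes with a positive log2 fold change in cngc4. It read 46.5, 24.3 and 43.3 in ws2, 50.4, 51.4 and 58.8 in akt1, 68.6, 49.1 and 52 in cngc1, and 37.8, 45.3 and 51.8 in cngc4. All akt1 and cngc1 arrays were above all ws2 arrays, while cngc4 overlapped with ws2. The log2 fold changes of 0.44 in cngc1 (adjusted p = 0.633), 0.39 in akt1 (adjusted p = 0.957) and 0.19 in cngc4 (adjusted p = 0.522) did not pass, and ws2 replicate 2 (24.3) was below the 40th percentile of its array.

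The mannan acetyltransferases TBL23, TBL25 and TBL26, which decorate another wall polymer, gave no call in cngc4. TBL25 read 144.5 to 171.5 in ws2 and 146.3 to 173.2 in cngc4, a log2 fold change of -0.01 with a 95% interval from -0.28 to 0.25. TBL26 had a log2 fold change of -0.06 (95% interval -0.38 to 0.26). TBL23 lay higher without overlap, at 58.4 to 72.6 in cngc4 and 44.1 to 56 in ws2, with a log2 fold change of 0.28 (95% interval -0.01 to 0.56, limma adjusted p = 0.220). These intervals leave out the estimates of the xylan acetyltransferases TBL30 (-0.71) and TBL34 (-0.68). The 95% interval of TBL30 runs from -1.04 to -0.38, next to the lower limit of TBL26, and that of TBL34 from -1.04 to -0.31. The estimates of TBL35 (-0.34) and TBL28 (-0.33) lie within the interval of TBL26, and that of TBL32 (0.28) within the interval of TBL23. TBL26 was also weak, at 34.8 to 41.3 in ws2 and 31.3 to 41.5 in cngc4, where the offset understates changes. Whether the mannan and xylan acetyltransferases differ as groups was not tested.

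Genes that lengthen the xylan chain did not pass in any comparison. GUT2 read 103.5, 139.5 and 144.3 in ws2, 111.7, 84.4 and 114 in akt1, 106.8, 98 and 141.6 in cngc1, and 117.8, 85.1 and 96.4 in cngc4. The 4 genotypes overlapped, with the widest spread in ws2 and cngc1. In cngc4 its log2 fold change was -0.32 (95% interval -0.68 to 0.03, limma adjusted p = 0.254).

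IRX15-L read 148.9 to 202.2 in ws2 and 110.9 to 157.4 in cngc4, with a log2 fold change of -0.32 (95% interval -0.71 to 0.07, adjusted p = 0.308). Its values in akt1 (111.3 to 165.2) and cngc1 (112.3 to 182.3) overlapped with both. GUT1 read 177.6 to 193.4 in ws2 and 170.9 to 235.5 in cngc4, a log2 fold change of 0.04 (95% interval -0.25 to 0.34). IRX15, the partner of IRX15-L, was weak on every array but akt1 replicate 2 (30.2), with 8.7 to 17.2 in ws2 and 2.9 to 19.5 in cngc4.

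**Figure D3:**
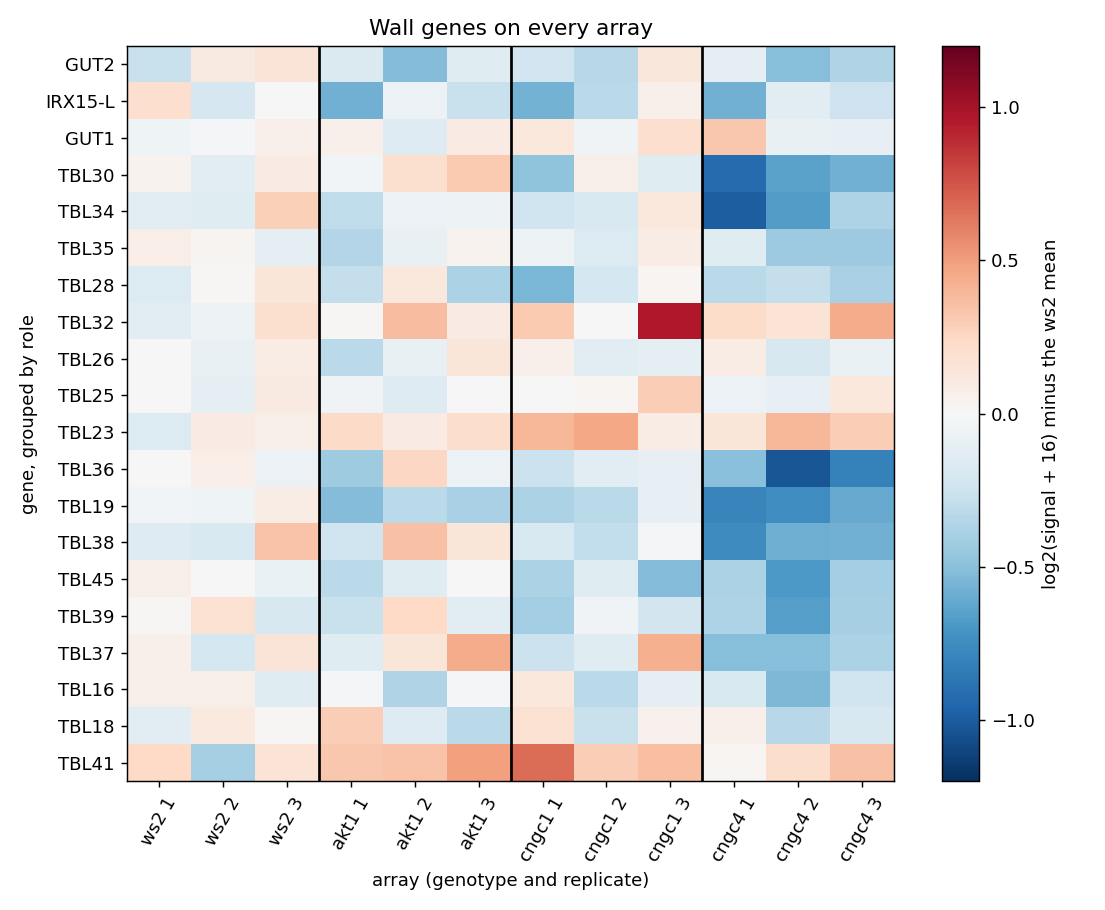
Difference of log2(signal + 16) from the ws2 mean for the 20 tested wall genes (rows, grouped by role) on the 12 arrays (columns, by genotype and replicate). Blue is lower and red higher. The 3 cngc4 columns are the bluest by their medians (-0.25, -0.47 and -0.36), and the darkest red cell is TBL32 in cngc1 replicate 3.

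Array by array, the median deviation of the 20 genes from their ws2 means was -0.25, -0.47 and -0.36 for cngc4 replicates 1 to 3. It was -0.20, -0.07 and 0.00 in akt1, -0.20, -0.14 and 0.06 in cngc1, and 0.00, -0.03 and 0.09 in ws2. The cngc4 arrays had the 3 lowest medians, with cngc4 replicate 2 furthest from ws2, and akt1 and cngc1 each had an array within the range of ws2. Over all probe sets tested the same medians lay between -0.05 and 0.03. Cngc4 had the lowest mean of the 4 genotypes for 14 of the 20 genes, compared with 37.3% of all probe sets, and cngc1 for none.

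Among the tested markers of other cells, LHCB4.1 and AUR1 passed in cngc4 against ws2 and the others did not. Of 6 shoot photosynthesis markers 4 were tested (RCA, LHCB4.1, PRK and SBPASE), none was at 0, and their summed signal was 540.7 to 635 in cngc4, 230.3 to 366.1 in ws2, 218.4 to 242.5 in akt1 and 224.2 to 323.4 in cngc1. LHCB4.1, an antenna protein, rose (log2 fold change 1.34, limma adjusted p = 0.00106) and the other 3 did not pass against ws2. Their log2 fold changes were 0.63 for RCA, 0.51 for PRK and 0.36 for SBPASE. For all 4 markers the cngc4 arrays lay above the ws2 arrays. Of all 14745 probe sets tested, 1340 were called in cngc4 against ws2, 648 of them lower. Of 5 markers of dividing cells AUR1 and AUR2 were tested, with a sum of 163.7 to 200.6 in cngc4 and 223.2 to 258.7 in ws2. AUR1, a mitotic kinase, fell by 0.45 on the log2 scale (adjusted p = 0.0366). AUR2 overlapped between cngc4 and ws2 and did not pass (log2 fold change -0.32, limma adjusted p = 0.258). Root hair (EXPA7, EXPA18) and phloem (SWEET11) markers overlapped between cngc4 and ws2. The 6 xylem and 3 endodermis markers were not analysed here, and the part of any cell type in the TBL results was not tested.

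Other genes of the wall pathway could be followed for 8 of the 89 listed, and none passed in cngc4, cngc1 or akt1. Of all 14745 probe sets tested, 1340 were called in cngc4 against ws2, 1 in cngc1 and 0 in akt1. The 8 genes are thus too few for the lack of calls to speak for the pathway. The median log2 fold change of the 8 genes in cngc4 was -0.14, against -0.03 over all probe sets tested. HCT, an enzyme of lignin synthesis, read 805.3 to 932.4 in ws2 and 627.4 to 753.3 in cngc4 (log2 fold change -0.33, limma adjusted p = 0.130). COB, which guides the orientation of cellulose, had a log2 fold change of -0.32 (adjusted p = 0.213), and its cngc4 arrays also lay below those of ws2. The wall regulator C3H14 had -0.35 (adjusted p = 0.341), with cngc4 overlapping ws2. AXY9, which takes part in the acetylation of xylan and xyloglucan, had a log2 fold change of 0.05 (adjusted p = 0.826), with a signal of 124 ± 5.52 in ws2 and 129 ± 2.51 in cngc4 (SD over 3 arrays). CC1 (-0.11) and CC2 (-0.16), companions of cellulose synthase, and CSLC4 (-0.08) and CSLD2 (-0.04), which make xyloglucan and wall backbones, had smaller log2 fold changes and did not pass.

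The mutants were also compared with each other, which asks whether the change in cngc4 differs from that in akt1 or cngc1; these comparisons share the cngc4 arrays with the one against ws2. Against akt1, TBL30, TBL38, TBL36 and TBL37 were lower in cngc4 and 16 genes did not pass. The background was 4.34% of all probe sets called lower. For 8 of the 20 genes the cngc4 arrays all lay below the akt1 arrays, compared with 14.2% of all probe sets. TBL30 had the most negative log2 fold change of signal + 16, with a value of -0.87 (standard error 0.15, limma adjusted p = 0.00439), and it kept an adjusted p under 0.05 in each of 25 alternative fits. Under the other call rule tried, which asks for a 2-fold change and p under 0.05 without adjustment, neither TBL30 (0.546 times akt1) nor any other wall gene was called in any comparison, and that rule is not among the fits counted here and for the other genes. TBL38 had -0.73 (adjusted p = 0.0177), TBL36 had -0.69 (adjusted p = 0.0207) and TBL37 had -0.62 (adjusted p = 0.0491).

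For TBL37 the akt1 arrays read 148.9, 185.6 and 232.2 and the cngc4 arrays 111.5, 112.1 and 124.2. The cngc4 values were tight and the akt1 values spread widely, and the call was lost in 15 of 25 alternative fits. TBL34 (-0.53, adjusted p = 0.0658) and TBL19 (-0.30, adjusted p = 0.160), which fell against ws2, did not pass against akt1. The 4 shoot photosynthesis markers tested were all higher in cngc4 in the same comparison: LHCB4.1 (log2 fold change 1.64, limma adjusted p = 0.000430), RCA (1.18, adjusted p = 0.00829), PRK (0.78, adjusted p = 0.0134) and SBPASE (0.47, adjusted p = 0.0438). Of all 14745 probe sets tested, 1310 were called in this comparison, 640 of them lower in cngc4. The part of the photosynthesis markers in the TBL differences was not tested. Without akt1 replicate 2, without akt1 replicate 3 or without cngc4 replicate 2 only TBL30 was called, and without cngc4 replicate 1 TBL30 and TBL36 were.

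Against cngc1, TBL36 alone was called lower in cngc4, with a log2 fold change of -0.61 (standard error 0.17, limma adjusted p = 0.0483). Over all probe sets 1.94% were called lower. With median centring the lower share of all calls moved from 37.5% to 26.4%, and TBL36 was no longer called. The call was lost in 17 of 25 alternative fits in all, with adjusted p between 0.0246 and 0.241. TBL19 (-0.45, adjusted p = 0.0583), TBL30 (-0.53, adjusted p = 0.0617) and TBL34 (-0.58, adjusted p = 0.0632) came next and did not pass. All 20 genes had a negative log2 fold change in this comparison, the smallest being that of TBL26 (-0.003), while 56.6% of all probe sets did. The cngc4 arrays lay below the cngc1 arrays for 6 genes, compared with 15.7% of all probe sets. Of the shoot photosynthesis markers, LHCB4.1 (log2 fold change 1.41, limma adjusted p = 0.00175) and PRK (0.66, adjusted p = 0.0391) were higher in cngc4 than in cngc1, and RCA and SBPASE did not pass. In this comparison 762 of all 14745 probe sets were called, 286 of them lower in cngc4. RNA integrity moved with this comparison on the second actin pair, whose ratio was 1.42 to 1.54 in cngc1 and 1.64 to 1.94 in cngc4 without overlap, while on the first actin pair and both GAPDH pairs the ranges overlapped. The part of either in the TBL differences was not tested.

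**Figure D4:**
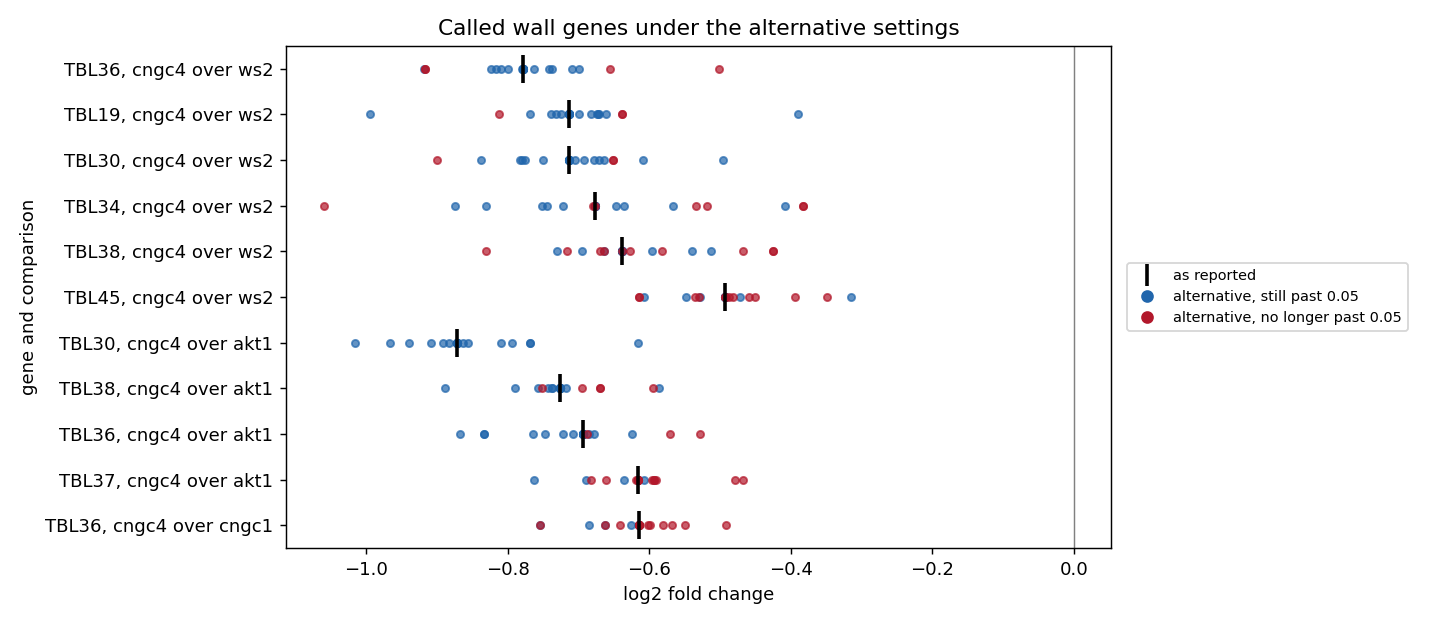
Log2 fold change of each called wall gene as reported (black bar) and under the alternative settings (points, 1 per refit). Blue points still passed an adjusted p of 0.05 and red points did not. Every point lies below 0, and TBL30 against akt1 kept an adjusted p under 0.05 in each of its 25 fits. The rule of an unadjusted p with a 2-fold change, under which no wall gene is called, is not drawn.

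In cngc1 and akt1 no wall gene passed against ws2 by limma. At an unadjusted p under 0.05, 3 of the 20 were found in cngc1 (TBL45 lower, TBL41 and TBL23 higher) and 2 in akt1 (TBL19 lower, TBL41 higher), compared with 7.32% and 5.06% of all probe sets. The share of all probe sets called was 0.00678% in cngc1 and 0% in akt1. Median log2 fold changes of the 20 genes were -0.10 in cngc1 and -0.07 in akt1, against 0.01 and -0.02 over all probe sets. Between cngc1 and akt1 no wall gene passed (0.00678% of all probe sets called), and TBL30 had an unadjusted p under 0.05, with a log2 fold change of -0.35 (adjusted p = 0.431); the share of all probe sets at that level was 11.2%.

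A joint F test of the 3 mutants against ws2 called 4 of the 20 genes, compared with 6.34% of all probe sets. They were TBL30 (limma adjusted p = 0.0131), TBL19 (adjusted p = 0.0193), TBL36 (adjusted p = 0.0310) and TBL38 (adjusted p = 0.0492). TBL34 (adjusted p = 0.0668) and TBL45 (adjusted p = 0.108) did not pass this test. Without cngc4 replicate 2 none of the 20 passed it, 1 did without cngc4 replicate 1, and 2 did without ws2 replicate 1, ws2 replicate 2 or akt1 replicate 3.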

How the data were processed

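Whole-root RNA of 12 samples was isolated with TRIzol and hybridised, after biotin labelling, to a 1-colour array of 22810 probe sets, per the labels' protocols. The deposited values are signal intensities on a linear scale. Their mean after trimming 2% at each end is the same on every array, so the deposited intensities had been scaled; which software did this is not stated in the labels or files. The 64 control probe sets were left out of the remaining 22746, and log2(signal + 16) was used without further normalization.

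In limma 3.58.1 (R 4.3.3), means of the 4 genotypes were fitted to 14745 probe sets, with eBayes, a mean-variance trend, two-sided tests, and Benjamini-Hochberg adjustment within each of 6 comparisons at 0.05. An exact permutation test of 3 arrays against 3 cannot go below p = 0.10 and was not used. Gene names rest on the array's annotation, in which 13513 probe sets name 1 gene and 503 several; all 26 genes were found in the table of assembly TAIR10.1, used for names and gene order only. Every member may be named, with all arrays given for called members and for TBL36, TBL19 and GUT2. Companion genes were to be named only where called; the 8 tested were named after their values were seen. The members, lists and roles were chosen with earlier results of these data known. Figures were drawn with matplotlib 3.10.9.

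Same-numbered arrays of different genotypes were not treated as pairs, since the labels state no pairing. Of 18 correlations of their deviations, 3 exceeded 0.1 (range -0.17 to 0.27). Arrays of different numbers were not set beside these, so the correlations cannot tell whether replicates were paired. No pair of arrays was identical. Alternative settings changed the scaling (quantile, median centring), the offset (none, 64), the filter (none, the 60th percentile), the eBayes options (no trend, robust), the weights, the design (replicate block, repeat mark as covariate, fits of 2 groups), the call (unadjusted p with a 2-fold change) and the arrays (each left out). Fits within or without repeat-marked arrays were added after seeing the data.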

Additional observations from a re-analysis of the deposited data

How the results depend on the processing

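The median log2 fold change of the 20 wall genes in cngc4 against ws2 stayed negative in every setting run (-0.41 to -0.23), but the counts of calls did not hold; causes were not tested, beyond that some settings use fewer samples or other thresholds. Of wall genes in cngc4 against ws2, 6 were called, 3 without the filter, 0 within unmarked arrays, 0 within marked arrays, 0 without repeat-marked arrays, 0 at an unadjusted p with 2-fold, and 2 to 6 with an array left out. Against akt1, 4 became 2 without repeat-marked arrays, 0 at an unadjusted p with 2-fold, and 1 to 4 with an array left out. Against cngc1, 1 became 0 under median centring, an offset of 64, no offset, no filter, eBayes without trend, fits of the 2 groups, without repeat-marked arrays, and an unadjusted p with 2-fold, and 0 to 1 with an array left out. Where 1 gene was called against cngc1 with an array left out, it was TBL36, except TBL30 without cngc1 replicate 1 and TBL34 without cngc4 replicate 3. The labels state no pairing by replicate number. With that number as a block, the count against cngc1 became 2 (TBL30 and TBL34, not TBL36), against 5 for cngc4 over ws2. The F test's 4 became 2 without the filter, 7 with array weights, 0 without repeat-marked arrays, 0 at an unadjusted p with 2-fold, and 0 to 4 with an array left out. Of all probe sets in cngc4 against ws2, 1340 became 813 without the filter, 2364 with array weights, 714 with the repeat mark as a covariate, 17 within unmarked arrays, 5 within marked arrays, 13 without repeat-marked arrays, 259 at an unadjusted p with 2-fold, and 322 to 1498 with an array left out. Against akt1, 1310 became 797 without the filter, 578 without repeat-marked arrays, 261 at an unadjusted p with 2-fold, and 304 to 1548 with an array left out. Against cngc1, 762 became 402 without the filter, 341 in fits of the 2 groups, 419 without repeat-marked arrays, 226 at an unadjusted p with 2-fold, and 129 to 871 with an array left out. For cngc1 against ws2, 1 became 21 at an unadjusted p with 2-fold and 1 to 2 with an array left out. For akt1 against ws2, 0 became 1 with array weights, 4 at an unadjusted p with 2-fold, and 0 to 1 with an array left out. For cngc1 against akt1, 1 became 4 with array weights, 22 at an unadjusted p with 2-fold, and 1 to 11 with an array left out. Signs turned for 4 genes that did not pass in cngc4 against ws2. GUT1 had -0.045 within unmarked and without repeat-marked arrays, and -0.096 to 0.118 with an array left out. TBL25 had 0.028 under median centring, 0.012 with array weights, 0.0077 within unmarked and without repeat-marked arrays, and -0.083 to 0.041 with an array left out. TBL26 had 0.092 within marked arrays, and -0.135 to 0.0060 with an array left out. TBL41 had -0.0044 to 0.312 with an array left out. TBL35 and TBL39 passed with array weights alone. The alternative of a gene's next probe set was not run, since each gene has 1. Probe sets near the filter, with signals close to background, and 3 arrays a genotype limit the precision.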
